A study of Mus musculus with 4 samples.

Results

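The 31 genes described here make cholesterol, sense it, move it between membranes, store it as ester, export it from the cell or oxidise it. They were named as a list from knowledge of the pathway, with earlier results of these data known. They were found by symbol among the 36601 human genes counted in the series. The list holds 17 enzymes of synthesis (HMGCS1, MVK, PMVK, MVD, IDI1, FDPS, FDFT1, SQLE, LSS, CYP51A1, TM7SF2, MSMO1, NSDHL, HSD17B7, EBP, SC5D and DHCR7), 3 genes of sterol sensing (SREBF2, SCAP and INSIG1), 4 of transport and storage (STARD4, NPC1, NPC2 and SOAT1), 5 of LXR signalling and efflux (NR1H3, NR1H2, ABCA1, ABCG1 and MYLIP) and 2 that make oxysterols (CYP27A1 and CH25H). All 31 were in the gene lists of both reactions. TM7SF2 was too low for the tests between classes, so 30 members were tested there.

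Human CD45+ cells were sorted from MDA-MB-231 tumors, a human breast carcinoma line grown in the mammary fat pad of 14 humanized mice, and profiled in 2 reactions of droplet 3' single-cell RNA-seq. The mice were of the MISTRG strain, which carries the human genes for M-CSF, GM-CSF and IL-3 and so supports human myeloid cells, and were irradiated and given CD34+ human fetal liver cells within 48 h of birth. The 7 maraviroc mice received the drug maraviroc at 300 mg/l in the drinking water for 10 days from day 21 after tumor injection, and the 7 untreated mice did not. All tumors were taken on day 31, and each mouse's cells carried a hashtag antibody whose name gives the treatment. The age of the mice beyond this schedule, and which mice shared a liver donor, were not given in the sources used here. The human immune cells developed next to the host's own mouse cells, which were not counted.

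Cells take cholesterol from lipoproteins or build it from acetyl-CoA through the mevalonate pathway. When sterol in the endoplasmic reticulum is low, SCAP carries SREBP2, the product of SREBF2, to the Golgi for cleavage, and SREBP2 then switches on the enzymes of synthesis; when sterol is high, INSIG1 holds the complex back. Oxysterols, which accumulate with excess sterol, activate the LXR receptors, and these induce ABCA1 and ABCG1, the pumps that load cholesterol on lipoprotein particles. Macrophages that engulf dying cells and debris take in much cholesterol and are known for strong efflux.

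Of the 29120 barcodes of reaction 1, 10631 were called as carrying hashtags of several mice and 5754 as carrying none. In reaction 2 these were 3380 and 180 of 13582, so mouse and treatment were assigned for a smaller part of reaction 1. After assignment to mice by hashtag and filtering, reaction 1 gave 11917 cells with a median of 3020 UMIs and reaction 2 gave 7900 cells with a median of 9691.5 UMIs. Cells were put in classes by the UMIs of marker genes, none of which is a member, at limits set after the data had been seen: 5285 macrophages by C1QA, C1QB, C1QC, CD163, MS4A7 and CSF1R, 1765 monocytes, 622 dendritic cells, 4883 lymphoid cells and 137 tumor cells. In reaction 1, 5885 of the 11917 cells were in none of these classes, and in reaction 2, 1240 of the 7900, mast cells and cells with markers of several classes included. The summed macrophage markers were at a median of 6316 CPM in macrophages, 508 CPM in monocytes, 368 CPM in dendritic cells and 60.2 CPM in lymphoid cells. The monocyte markers (VCAN, FCN1, S100A8, S100A9 and S100A12) were at 21082 CPM in monocytes and still at 2531 CPM (1534 to 3373) in macrophages. The part of monocyte-like cells in the macrophage levels was not tested. Markers of digestion and heat stress (FOS, JUN, HSPA1A and HSPA1B) summed to 1988 to 2369 CPM in macrophages, 696 to 1019 CPM in lymphoid cells and 1007 to 1844 CPM in tumor cells of 6 mice, with no overlap with macrophages, and their part in the differences between these classes was not tested. Cycling markers (MKI67, TOP2A, CDK1 and BIRC5) summed to a median of 538 CPM in lymphoid cells (383 to 799) and 361 CPM in macrophages (247 to 584). They were at 70.1 CPM in dendritic cells and 34.0 CPM in monocytes, and their part in the differences between classes was not tested. Reactions 1 and 2 shared 136 cell barcodes. The level of SPP1, a macrophage gene, was 2.18% of the macrophage level in the lymphoid cells of reaction 1 and 1.21% in those of reaction 2. The UMIs of each class were summed per mouse and scaled to CPM (UMIs per 1000000) with TMM factors, so the mouse is the replicate in every comparison.

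Between the classes the synthesis genes and the LXR and efflux genes mostly went opposite ways. The other roles were mixed against monocytes. Of the 4 transport and storage genes 2 were higher and 2 lower in macrophages. Of the 3 sensing genes and of the 2 oxysterol genes 1 was higher and 1 lower. In macrophages most enzymes of synthesis and SREBF2 were lower than in monocytes, dendritic cells and lymphoid cells, while ABCA1, ABCG1, NR1H3, MYLIP, NPC1, NPC2 and INSIG1 were higher, and LSS went with the second group. Against monocytes, 24 of the 30 tested members passed an adjusted p of 0.05 (edgeR), 10 higher and 14 lower in macrophages, where 55.8% of all 12386 genes passed. In dendritic cells against macrophages 24 members passed, 15 higher and 9 lower in dendritic cells, where 56.7% of all genes passed. In lymphoid cells against macrophages all 30 passed, 17 higher and 13 lower in lymphoid cells, where 78.7% of all genes passed. These backgrounds are high, so the counts alone say little about the members. The direction differed between the synthesis genes and the LXR and efflux genes. The median log2 fold change of the 16 tested synthesis genes was -0.29 in macrophages against monocytes, and 0.70 in dendritic and 0.90 in lymphoid cells against macrophages. For the 5 LXR and efflux genes the same medians were 0.75, -1.74 and -2.06. The medians of all genes tested in the same 3 comparisons were 0.04, -0.01 and 0.04. The 3 comparisons share the macrophages and are not independent of each other.

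**Figure D1:**
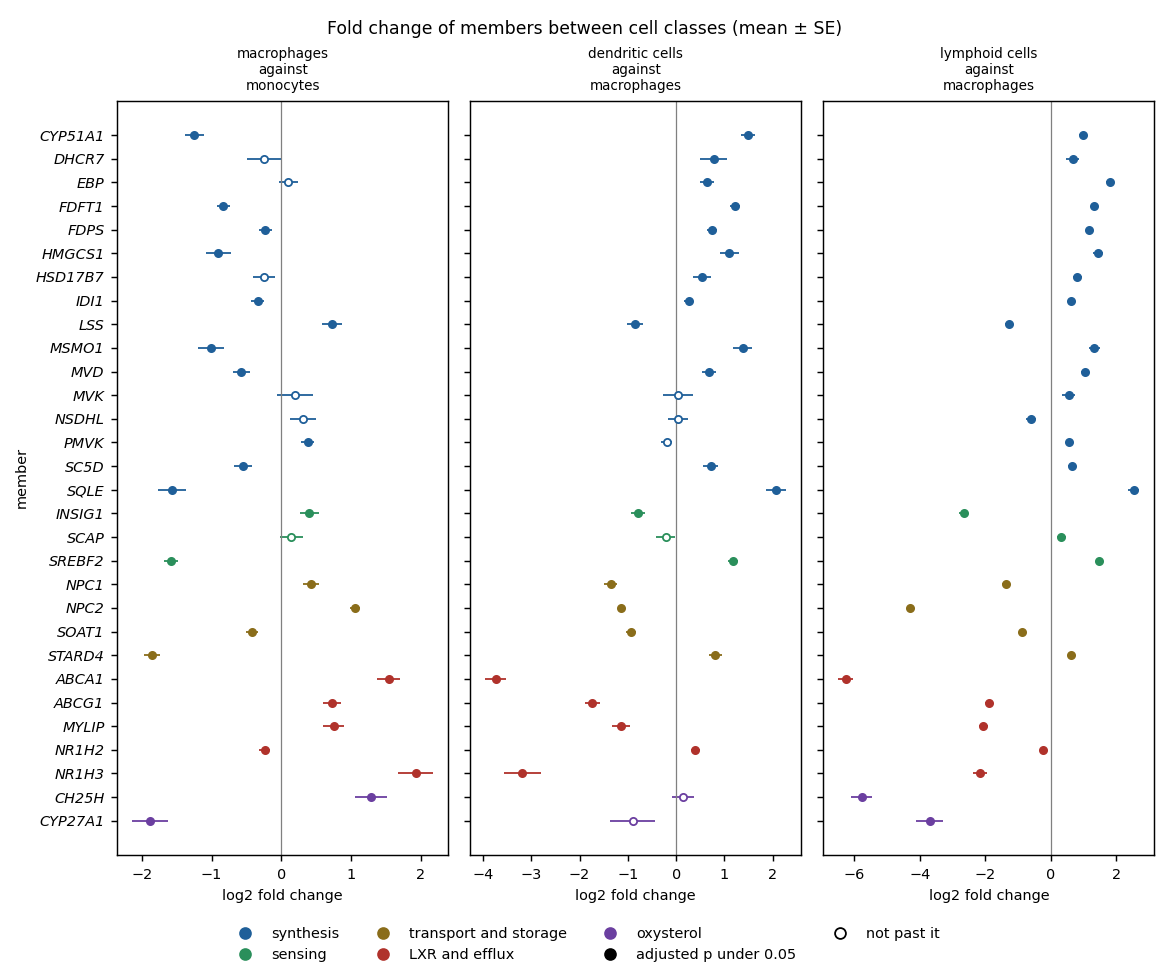
Log2 fold changes of the 30 tested members (rows, coloured by role) between cell classes, with bars for the standard error derived from the edgeR test. Filled points passed an adjusted p of 0.05. SQLE, CYP51A1, MSMO1, HMGCS1, FDFT1 and SREBF2 lie left of 0 for macrophages against monocytes and right of 0 for dendritic and lymphoid cells against macrophages, and ABCA1, ABCG1, NR1H3 and MYLIP lie on the opposite sides.

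Of the enzymes of synthesis, 2 were higher and 9 lower in macrophages than in monocytes (29.2% and 26.6% of all genes were), 12 higher and 1 lower in dendritic cells than in macrophages (28.6% and 28.1%), and 14 higher and 2 lower in lymphoid cells than in macrophages (40.6% and 38.0%). HMGCS1, which makes HMG-CoA at the start of the pathway, was at a median of 29.2 CPM in the macrophages of the 14 mice (25.2 to 40.3), 49.4 CPM in monocytes (30.02 to 128), 49.2 CPM in dendritic cells (29.9 to 112) and 82.5 CPM in lymphoid cells (57.5 to 115). No mouse's macrophages reached the lowest lymphoid level, while the macrophage range overlapped those of monocytes and dendritic cells. Its log2 fold change was -0.91 ± 0.18 (SE) in macrophages against monocytes (adjusted p = 1.96e-05, edgeR, higher in 2 of 14 mice), 1.11 ± 0.20 in dendritic cells against macrophages (adjusted p = 2.82e-06, edgeR) and 1.44 ± 0.16 in lymphoid cells against macrophages (adjusted p = 1.15e-11, edgeR). Without reaction 2 the difference between dendritic cells and macrophages was 0.63 ± 0.26 and no longer passed (adjusted p = 0.0634, edgeR).

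SQLE, squalene epoxidase and a rate-limiting step of the late pathway, differed most of the synthesis genes in each of these 3 comparisons. It was at a median of 17.9 CPM in macrophages (10.9 to 35.9), 46.4 CPM in monocytes (19.2 to 77.1), 72.5 CPM in dendritic cells (15.6 to 144) and 90.7 CPM in lymphoid cells (71.7 to 236). Macrophages were lower than monocytes in 14 of 14 mice and lower than dendritic cells in 13 of 14, and the macrophage and lymphoid ranges did not overlap. The log2 fold changes were -1.57 ± 0.20, 2.07 ± 0.21 and 2.52 ± 0.18 (adjusted p = 7.81e-10, 1.29e-12 and 5e-19, edgeR), which puts SQLE 5.74-fold higher in lymphoid cells than in macrophages.

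CYP51A1, the lanosterol demethylase, was at a median of 41.7 CPM in macrophages (32.2 to 88.5), 94.2 CPM in monocytes (56.7 to 134), 109 CPM in dendritic cells (37.3 to 188) and 82.9 CPM in lymphoid cells (63.0 to 111). It was lower in macrophages than in monocytes and dendritic cells in all 14 mice (log2 fold change -1.25 ± 0.14 and, for dendritic cells against macrophages, 1.49 ± 0.15; adjusted p = 2.16e-11 and 6.02e-13, edgeR). MSMO1, which removes the methyl groups at carbon 4, was at medians of 14.3, 27.6, 33.4 and 39.1 CPM in macrophages, monocytes, dendritic and lymphoid cells, and FDFT1, squalene synthase, at 35.5, 59.8, 80.04 and 84.97 CPM. For FDFT1 the log2 fold change was -0.83 ± 0.09 in macrophages against monocytes and 1.31 ± 0.08 in lymphoid cells against macrophages (adjusted p = 1.91e-11 and 9.91e-21, edgeR), and the macrophage range of 22.8 to 51.1 CPM lay below the lymphoid range of 69.8 to 114 CPM.

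MVD, IDI1, SC5D and FDPS went in the same direction. MVD, which forms isopentenyl diphosphate, was at 15.1 CPM in macrophages, 18.9 in monocytes, 21.6 in dendritic and 32.7 in lymphoid cells, and IDI1, its isomerase, at 90.1, 116, 104 and 139 CPM. SC5D, which adds a double bond late in the pathway, was at 16.8, 21.2, 23.3 and 24.0 CPM (medians). All 3 passed in each comparison, with log2 fold changes between -0.57 and -0.34 in macrophages against monocytes and between 0.26 and 1.03 in the other comparisons. The smallest, IDI1 in dendritic cells, did not pass in reaction 1 (adjusted p = 0.237, edgeR) or reaction 2 alone (adjusted p = 0.0577, edgeR). FDPS, which makes farnesyl diphosphate, was at medians of 50.6, 55.8, 75.9 and 108 CPM. Its difference between macrophages and monocytes passed, but did not in reaction 1 alone (0.03 ± 0.14, adjusted p = 0.893, edgeR) and was -0.39 ± 0.13 in reaction 2. EBP, a sterol isomerase, stood out in lymphoid cells with a median of 73.1 CPM (49.7 to 90.3) against 21.7 CPM in macrophages (12.4 to 32.2). These ranges do not overlap (log2 fold change 1.79 ± 0.10, adjusted p = 3.13e-23, edgeR). EBP was at 15.6 CPM in monocytes and 25.9 CPM in dendritic cells, and its difference between macrophages and monocytes did not pass.

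LSS, lanosterol synthase, ran against its neighbours SQLE and CYP51A1 in the pathway. Its median was 33.8 CPM in macrophages (21.9 to 58.0), 19.1 CPM in monocytes (8.34 to 26.4), 13.9 CPM in dendritic cells (0 to 28.9) and 13.5 CPM in lymphoid cells (10.1 to 16.3). Macrophages were above the monocytes of the same mouse in 14 of 14 mice (log2 fold change 0.72 ± 0.14, adjusted p = 1.02e-05, edgeR) and above dendritic and lymphoid cells in every mouse (-0.86 ± 0.17 and -1.28 ± 0.13 for these classes against macrophages, adjusted p = 1.41e-05 and 1.51e-13, edgeR). PMVK, phosphomevalonate kinase, was also higher in macrophages than in monocytes in 14 of 14 mice, by 0.37 ± 0.09 (adjusted p = 0.000644, edgeR), but was highest in lymphoid cells with a median of 58.1 CPM against 38.3 CPM in macrophages. The remaining enzymes of the list were scarce. NSDHL was at a median of 8.45 CPM in macrophages and 5.36 CPM in lymphoid cells, DHCR7 at 4.03 and 6.33 CPM, MVK at 4.86 and 6.82 CPM, HSD17B7 at 10.5 and 17.6 CPM and TM7SF2 at 2.61 and 3.92 CPM; none of NSDHL, DHCR7, MVK and HSD17B7 passed between macrophages and monocytes.

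**Figure D2:**
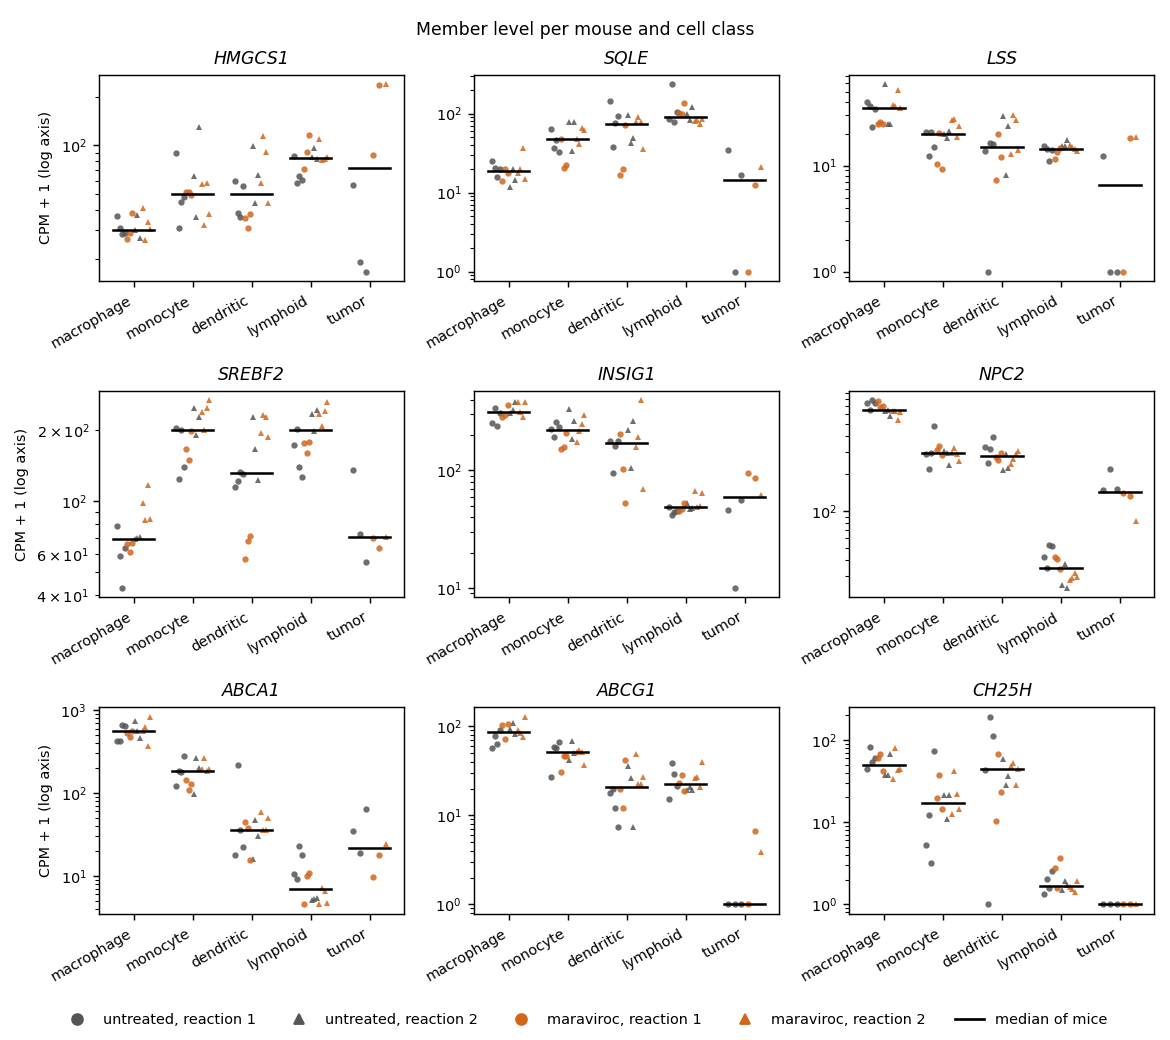
Levels of 9 members in each mouse by cell class, as CPM plus 1 on a log axis; circles are mice of reaction 1, triangles mice of reaction 2, grey untreated and orange maraviroc mice, and the line is the median (14 mice, 6 for tumor cells). HMGCS1, SQLE and SREBF2 are lowest in macrophages among the 4 immune classes, LSS, INSIG1, NPC2, ABCA1 and ABCG1 are highest there, and CH25H is near 0 in lymphoid cells and at 0 in tumor cells.

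Among the sensing genes SREBF2 and INSIG1 went opposite ways. SREBF2 was at a median of 68.5 CPM in macrophages (41.97 to 117), 199 CPM in monocytes (124 to 267), 131 CPM in dendritic cells (56.3 to 231) and 199 CPM in lymphoid cells (126 to 263). The macrophage range overlapped neither that of monocytes nor that of lymphoid cells. The log2 fold changes were -1.58 ± 0.10 in macrophages against monocytes and 1.47 ± 0.10 in lymphoid cells against macrophages (adjusted p = 2.18e-19 and 1.82e-19, edgeR). INSIG1, which retains SCAP in the endoplasmic reticulum and is itself a target of SREBP2, was at a median of 310 CPM in macrophages (236 to 381), 220 CPM in monocytes (150 to 330), 169 CPM in dendritic cells (51.6 to 394) and 47.5 CPM in lymphoid cells (41.1 to 66.1). Macrophages and lymphoid cells did not overlap for INSIG1 (-2.66 ± 0.14, adjusted p = 5.84e-24, edgeR), and the difference between macrophages and monocytes was small (0.40 ± 0.13, adjusted p = 0.00906, edgeR, higher in 12 of 14 mice), and did not pass in reaction 1 (adjusted p = 0.0687) or reaction 2 alone (adjusted p = 0.0784). SCAP was at medians of 13.8 to 18.4 CPM in macrophages, monocytes and lymphoid cells and 10.9 CPM in dendritic cells, and of these comparisons passed only in lymphoid cells against macrophages (0.32 ± 0.13, adjusted p = 0.0299, edgeR), but not in reaction 1 alone (adjusted p = 0.37).

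NPC1 and NPC2, which release cholesterol from lysosomes, were highest in macrophages among the immune classes. NPC2, the soluble carrier, was at a median of 651 CPM in macrophages (540 to 780), 293 CPM in monocytes (216 to 486), 277 CPM in dendritic cells (214 to 395) and 33.4 CPM in lymphoid cells (22.9 to 51.7). The macrophage range lay above all others, with log2 fold changes of 1.05 ± 0.07 against monocytes, -1.14 ± 0.07 for dendritic cells and -4.28 ± 0.08 for lymphoid cells (adjusted p = 4.06e-19, 8.66e-20 and 1.07e-43, edgeR). NPC1, the membrane partner, was at medians of 188, 138, 74.2 and 74.2 CPM in the same order of classes, and 2.57-fold lower in lymphoid cells than in macrophages. Against monocytes NPC1 was 0.43 ± 0.12 higher in macrophages (adjusted p = 0.00136, edgeR), but 0.33 ± 0.16 in reaction 1 alone (adjusted p = 0.1, edgeR). STARD4, a cytosolic sterol carrier and SREBP2 target, was by contrast lowest in macrophages, at 24.0 CPM (13.0 to 34.3) against 84.2 CPM (38.4 to 100) in monocytes. The STARD4 ranges did not overlap (-1.86 ± 0.11, adjusted p = 1.2e-20, edgeR), and it was 0.62 ± 0.11 higher in lymphoid cells than in macrophages (adjusted p = 1.61e-06, edgeR). SOAT1, which esterifies cholesterol for storage, was at medians of 124 CPM in macrophages, 143 CPM in monocytes, 55.5 CPM in dendritic and 65.1 CPM in lymphoid cells. Against monocytes SOAT1 passed as lower in macrophages. It was -0.93 ± 0.11 and -0.89 ± 0.09 in dendritic and lymphoid cells against macrophages (adjusted p = 4.24e-11 and 1.38e-13, edgeR).

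ABCA1, which passes cholesterol to lipid-poor apolipoproteins, was at a median of 562 CPM in macrophages (364 to 835), 183 CPM in monocytes (95.8 to 280), 35.2 CPM in dendritic cells (14.8 to 214) and 5.87 CPM in lymphoid cells (3.54 to 21.9). No class overlapped the macrophages. ABCA1 was 2.90-fold higher in macrophages than in monocytes (log2 fold change 1.54 ± 0.17, adjusted p = 1.79e-11, edgeR). It was 13.4-fold lower in dendritic cells (-3.74 ± 0.21, adjusted p = 9.44e-22, edgeR) than in macrophages. The dendritic ABCA1 level was 7.95% of the macrophage level in reaction 1 and 6.81% in reaction 2. The same shares were 4.14% and 1.45% for SPP1, 9.61% and 6.41% for CD14, and 26.0% and 19.5% for CTSB. The part of macrophage RNA in the dendritic level was not tested. For lymphoid cells the fitted value was -6.26 ± 0.22 (adjusted p = 3.07e-32, edgeR), set against a level near that of free RNA. In reaction 1 it was 2.59% of the macrophage level (95% exact interval 2.20% to 3.04%, counting error only) against 1.98% for CD14, 2.18% for SPP1 and 3.81% for CTSB. These 3 genes were highest in macrophages and chosen after the data had been seen, and CTSB was the least confined to macrophages. In reaction 2 the ABCA1 share was 0.869% (0.717% to 1.04%) against 1.202%, 1.21% and 3.21%. The lymphoid ABCA1 share was thus below all of the 3 genes in reaction 2. In reaction 1 it was above CD14 and SPP1 and below CTSB alone, and no ABCA1 expression in lymphoid cells was read from it.

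ABCG1, which exports cholesterol to high-density lipoprotein, was at a median of 85.6 CPM in macrophages (55.7 to 128), 49.9 CPM in monocytes (26.3 to 68.2), 20.1 CPM in dendritic cells (6.38 to 47.9) and 21.2 CPM in lymphoid cells (14.3 to 38.3). It was higher in macrophages than in monocytes in 14 of 14 mice (0.72 ± 0.13, adjusted p = 2.12e-06, edgeR), and did not overlap with dendritic cells (-1.74 ± 0.16, adjusted p = 7.88e-14, edgeR) or lymphoid cells (-1.88 ± 0.12, adjusted p = 4.39e-20, edgeR). Unlike ABCA1, its lymphoid level was 32.0% of that of macrophages in reaction 1 (28.4% to 35.9%) and 30.2% in reaction 2 (27.8% to 32.6%), above the shares of SPP1 and CTSB in both reactions.

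NR1H3, which encodes LXR alpha, was at a median of 11.9 CPM in macrophages (7.00 to 24.3) against 2.57 CPM in monocytes (0 to 6.30), 1.11 CPM in dendritic cells (0 to 9.32) and 2.85 CPM in lymphoid cells (0.590 to 5.69). The macrophage range overlapped neither that of monocytes (1.92 ± 0.25, adjusted p = 3.27e-09, edgeR) nor that of lymphoid cells (-2.15 ± 0.21, adjusted p = 1.42e-13, edgeR), although the sums rest on 612 UMIs in macrophages and 51 in monocytes. NR1H2, which encodes LXR beta, differed by at most 0.39 on the log2 scale in these comparisons, at medians of 34.5, 38.6, 42.2 and 28.9 CPM in macrophages, monocytes, dendritic and lymphoid cells. These small differences passed in all 3 comparisons. Unlike the other LXR and efflux genes, NR1H2 was lower in macrophages than in monocytes and dendritic cells, and it was higher than in lymphoid cells. MYLIP, an LXR-induced ubiquitin ligase that degrades lipoprotein receptors, was at 43.5, 22.3, 20.03 and 10.3 CPM. It was 0.75 ± 0.14 higher in macrophages than in monocytes (adjusted p = 1.39e-05, edgeR, 13 of 14 mice), but in reaction 1 alone the difference was 0.55 ± 0.23 and did not pass (adjusted p = 0.0538, edgeR). It was -2.06 ± 0.14 in lymphoid cells against macrophages (adjusted p = 1.84e-19, edgeR).

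The 2 oxysterol enzymes differed in where they were found. CH25H, which makes 25-hydroxycholesterol and is known as an interferon-induced gene, was at a median of 48.2 CPM in macrophages (33.0 to 80.9), 16.1 CPM in monocytes (2.18 to 72.3), 42.8 CPM in dendritic cells (0 to 192) and 0.684 CPM in lymphoid cells (0.341 to 2.66). It was 1.28 ± 0.23 higher in macrophages than in monocytes (adjusted p = 3.47e-06, edgeR, 13 of 14 mice), while the difference between dendritic cells and macrophages was 0.15 ± 0.23 (adjusted p = 0.601, edgeR). Its lymphoid level, 2.54% and 1.60% of the macrophage level in the 2 reactions, was within counting error of the share of SPP1 in both, and was not read as expression. CYP27A1, the mitochondrial sterol 27-hydroxylase, was highest in monocytes at a median of 7.51 CPM (3.15 to 29.3) against 3.11 CPM in macrophages (0 to 5.37), with a log2 fold change of -1.88 ± 0.26 in macrophages against monocytes (adjusted p = 8.56e-09, edgeR, lower in 13 of 14 mice) from 127 and 163 UMIs, and 6 UMIs in all lymphoid cells.

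The dendritic class mixed cDC1, cDC2, mature and plasmacytoid dendritic cells, whose markers varied widely between mice, from 16.1 to 2121 CPM for the mature list (LAMP3, CCR7 and CCL19). The members' levels in these subsets are given side by side. CH25H was at a median of 124 CPM in the cDC2 of 9 mice with at least 10 such cells (49.1 to 274) and 29.1 CPM in plasmacytoid cells of 5 mice (0 to 62.1). Only 5 CH25H UMIs were counted in the mature cells of 4 mice (0 to 19.96 CPM). INSIG1 was at 344 CPM in cDC2 (98.4 to 656), and at 29.5 CPM in mature cells (0 to 48.2) and 65.3 CPM in plasmacytoid cells (21.9 to 98.3). HMGCS1 had a median of 144 CPM in mature cells (71.9 to 231), 53.4 CPM in cDC2 (14.1 to 116) and 45.7 CPM in plasmacytoid cells (21.9 to 72.2). CYP51A1 was at 182 CPM in cDC2 (86.7 to 271), 67.8 CPM in mature cells (0 to 91.8) and 58.3 CPM in plasmacytoid cells (0 to 143). In the same cells the NPC2 level was 310 CPM in cDC2, 110 CPM in mature and 412 CPM in plasmacytoid cells. The differences between subsets were not tested, because few mice had enough cells of each.

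Within the lymphoid class, several members had similar medians in T and NK cells. SQLE was at a median of 99.03 CPM in T cells (65.2 to 334, 13 mice) and 95.6 CPM in NK cells (54.1 to 251, 14 mice), HMGCS1 at 90.6 and 87.0 CPM, EBP at 74.4 and 85.2 CPM and ABCG1 at 23.1 and 22.3 CPM. PMVK was at 74.0 CPM in T cells (40.7 to 86.4) and 44.8 CPM in NK cells (24.0 to 70.2), and NPC1 at 92.3 CPM (65.1 to 154) and 53.2 CPM (33.4 to 90.5), with overlapping ranges for both. In the B cells of 5 mice SQLE was at 23.7 CPM (0 to 48.9) and SREBF2 at 184 CPM (142 to 402). The differences among the lymphoid types were not tested.

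In 6 mice with at least 10 tumor cells among the sorted cells, tumor cells could be set against the macrophages of 14 mice. Of the 30 members 18 passed, 8 higher and 10 lower in tumor cells, where 49.9% of all genes passed, 20.3% higher and 29.6% lower. The median log2 fold change was 0.48 for synthesis genes and -2.35 for LXR and efflux genes, beside -0.23 for all genes. MSMO1 was at a median of 96.8 CPM in tumor cells (9.02 to 180) against 14.3 CPM in macrophages, a log2 fold change of 2.85 ± 0.33 (adjusted p = 1.01e-10, edgeR, higher in 5 of 6 mice). DHCR7, the last enzyme of synthesis, was at 17.6 CPM (15.6 to 34.9), above the macrophages in all 6 mice (2.48 ± 0.44, adjusted p = 3.25e-06, edgeR). HMGCS1 varied from 15.6 to 239 CPM over these mice with a median of 71.2 CPM (2.31 ± 0.31, adjusted p = 8.95e-09, edgeR, higher in 4 of 6). SQLE, which was high in lymphoid and dendritic cells, was at 13.5 CPM (0 to 33.7), at 0.01 ± 0.69 against macrophages.

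The efflux genes were low or missing in tumor cells. ABCG1 was at 0 in 4 of 6 mice and reached 5.70 CPM (-5.21 ± 0.62, adjusted p = 2.71e-10, edgeR). ABCA1 was at a median of 20.7 CPM (8.62 to 62.5; -4.32 ± 0.42, adjusted p = 7.7e-13, edgeR), and CH25H had 0 of 1358162 UMIs in the tumor cells of all 14 mice. With a floor of 3 counts over all these cells, CH25H was at least 21.5-fold lower than in macrophages. The macrophage markers summed to a median of 155 CPM in the tumor cells (37.8 to 398), and the part of macrophage RNA in their ABCA1 level was not tested. NPC1 did not pass, at a median of 174 CPM (68.9 to 304; 0.17 ± 0.20, adjusted p = 0.517, edgeR). In reaction 1 alone, NSDHL, HSD17B7, MVK, PMVK and MYLIP did not pass (adjusted p = 0.0514, 0.0536, 0.0588, 0.0818 and 0.153, edgeR), and tumor cells of reaction 2 alone were too few to be fitted.

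Of 30 other genes of the pathway, listed for their known roles with earlier results of these data in view, 27 were tested between classes. Of these 10 were higher and 8 lower in macrophages than in monocytes, 7 higher and 11 lower in dendritic cells than in macrophages, and 6 higher and 17 lower in lymphoid cells than in macrophages. Of all genes 29.2% and 26.6%, 28.6% and 28.1%, and 40.6% and 38.0% were higher and lower in the same comparisons, so nothing is read from the counts against monocytes alone. ACAT2, a further enzyme of synthesis, was higher in lymphoid cells than in macrophages (0.87), as were 14 of the 16 synthesis members. INSIG2 was higher in macrophages than in monocytes (0.79) and lower in lymphoid cells (-1.56), as was INSIG1. The scavenger receptors did not share a direction between macrophages and monocytes: MSR1 was higher in macrophages (2.50), and CD36 (-1.83) and OLR1 (-2.51) were lower.

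Macrophages were further divided by state markers into 6 states and 3047 other C1Q macrophages that carried none of these states' markers at the limits set, and each state was compared with those. Macrophages that met the limits of several states, 247 in reaction 1 and 173 in reaction 2, were left out. The 19 members with enough UMIs were tested, and the 6 comparisons share the other C1Q macrophages. The GLUT1 macrophages (272 cells, marked by SLC2A1, ADM, NDRG1, EGLN3 and CA12, genes known to rise in hypoxia) had ABCA1, ABCG1, MYLIP and NPC1 higher and several synthesis genes lower. Here 9 of 19 members passed, 4 higher and 5 lower, where 24.1% of 6762 genes passed, 13.5% higher and 10.6% lower. The digestion and heat stress markers summed to a median of 3098 CPM (2459.8 to 3554, 12 mice) in this state against 1963 CPM (1788 to 2348, 14 mice) in other C1Q macrophages, with no overlap, and their part in the result was not tested.

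ABCA1 was at a median of 1261 CPM in the GLUT1 macrophages of 12 mice (694 to 1947) against 502 CPM in the other C1Q macrophages of 14 mice (321 to 689). The ranges did not overlap, and GLUT1 macrophages were higher in 12 of 12 mice (1.43 ± 0.14, adjusted p = 1.64e-13, edgeR). ABCG1 was at 181 CPM (90.1 to 253) against 79.3 CPM (53.2 to 116), MYLIP at 74.3 CPM (32.5 to 143) against 37.1 CPM (20.4 to 63.7) and NPC1 at 279 CPM (144 to 596) against 165 CPM (127 to 279). All 3 were higher in GLUT1 macrophages in 12 of 12 mice, with log2 fold changes of 1.10 ± 0.20, 1.18 ± 0.22 and 0.93 ± 0.16, and each passed in reaction 1 and in reaction 2 alone. With doubled gate minimums and at least 5 cells, only 2 members passed in this state, so not all of ABCA1, ABCG1, MYLIP and NPC1 did. Of 20 tested genes of the pathway list 6 were higher and 0 lower: SCD (2.11), INSIG2 (1.5), SCARB1 (1.23), SREBF1 (0.69), MSR1 (0.65) and LIPA (0.46).

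The synthesis side fell by less and less firmly in GLUT1 macrophages. FDPS (-0.71 ± 0.22), IDI1 (-0.61 ± 0.20), PMVK (-0.54 ± 0.20), CYP51A1 (-0.53 ± 0.19) and SREBF2 (-0.53 ± 0.19) passed with adjusted p from 0.0145 to 0.0451 (edgeR), and the ranges of all 5 overlapped with those of the other C1Q macrophages. In reaction 2 alone none of the 5 passed, nor did the 4 that could be tested in reaction 1 alone (all but CYP51A1). HMGCS1 was at 21.9 CPM (0 to 153) against 27.9 CPM and did not pass. GLUT1 macrophages were deeper than the other C1Q macrophages in reaction 1 (median 6172.5 against 3999.0 UMIs per cell) and shallower in reaction 2 (11445 against 12639.5).

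**Figure D3:**
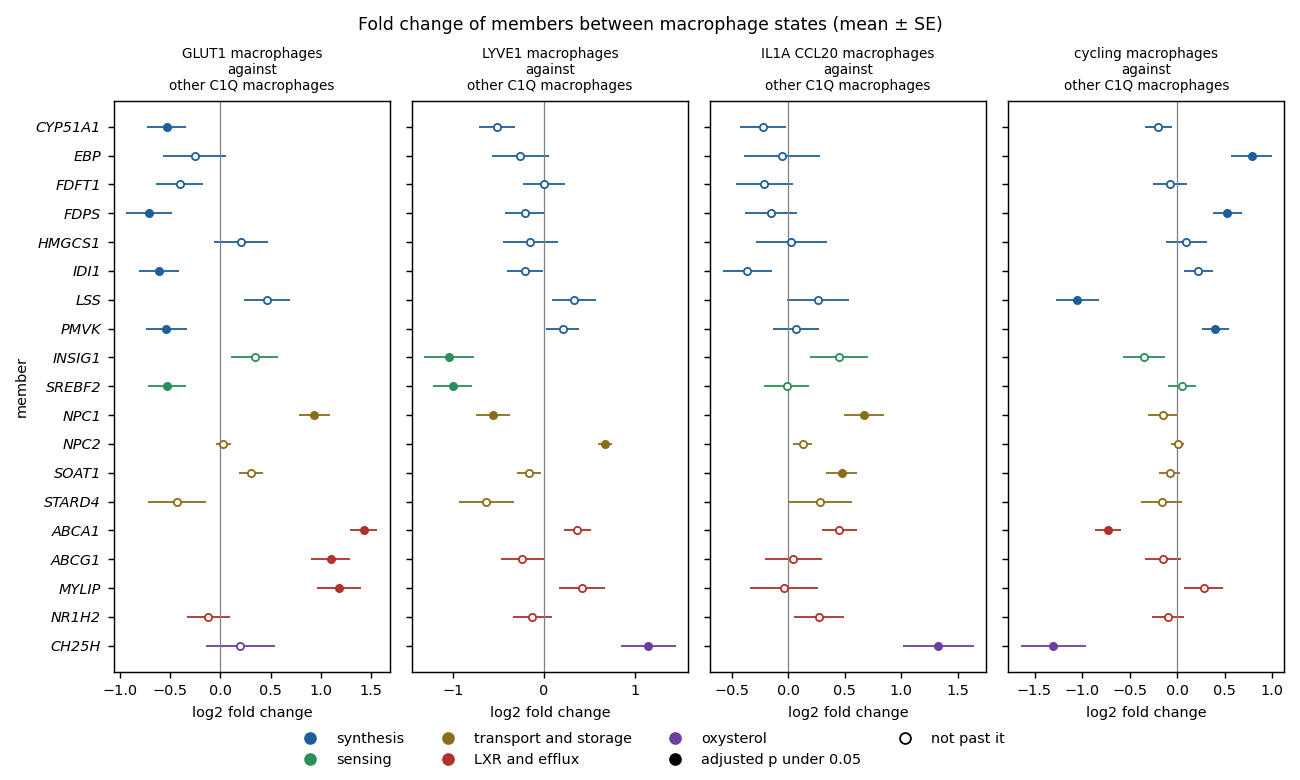
Log2 fold changes of the 19 tested members in 4 macrophage states against the other C1Q macrophages, with bars for the standard error; filled points passed an adjusted p of 0.05. ABCA1, ABCG1, MYLIP and NPC1 are right of 0 in GLUT1 macrophages, NPC2 and CH25H are right of 0 and INSIG1, SREBF2 and NPC1 left of 0 in LYVE1 macrophages.

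LYVE1 macrophages (287 cells, marked by LYVE1, FOLR2 and CCL18) had more NPC2 and CH25H and less INSIG1, SREBF2 and NPC1. So 5 of 19 members passed, where 21.4% of genes did, 11.0% higher and 10.5% lower. This count, too, is near the share of all genes and alone says little about the members. NPC2 was at a median of 925 CPM in 11 mice (660 to 1104) against 591 CPM (517 to 696), higher in 11 of 11 mice (0.67 ± 0.08, adjusted p = 3.79e-11, edgeR). INSIG1 was at 125 CPM (30.8 to 345) against 315 CPM (222 to 403), lower in 10 of 11 mice (-1.04 ± 0.27, adjusted p = 0.00268, edgeR), and SREBF2 at 32.9 CPM (10.8 to 66.7) against 67.3 CPM (47.98 to 138), also lower in 10 of 11 (-1.0 ± 0.22, adjusted p = 0.000245, edgeR). CH25H was at 89.7 CPM (25.9 to 184) against 48.7 CPM (24.96 to 82.9), higher in 9 of 11 mice (1.15 ± 0.30, adjusted p = 0.00248, edgeR); without reaction 2 it was 0.82 ± 0.35 and did not pass (adjusted p = 0.137, edgeR). NPC1 was -0.56 ± 0.19 (adjusted p = 0.0212, edgeR), opposite in sign to NPC2, and without reaction 2 it was -0.47 ± 0.27 (adjusted p = 0.316, edgeR). INSIG1 without reaction 1 was -0.70 ± 0.31 (adjusted p = 0.152, edgeR). CD36, a scavenger receptor of the pathway list, was 2.25 higher on the log2 scale in LYVE1 macrophages and OLR1 1.90 lower. The macrophage markers themselves were higher in this state, at a median of 9763 CPM against 5370 CPM in the other C1Q macrophages.

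In IL1A CCL20 macrophages (230 cells of all mice, 9 mice with enough cells; marked by IL1A, CCL20 and CXCL5) 3 members passed, all higher, where 4.9% of genes did, 3.56% higher and 1.33% lower. CH25H was at a median of 119 CPM (36.3 to 174) against 48.7 CPM, higher in 7 of 9 mice (1.33 ± 0.31, adjusted p = 0.00408, edgeR). Its difference came from reaction 2 (2.09 ± 0.42, adjusted p = 0.004, edgeR) more than from reaction 1 (0.39 ± 0.42, adjusted p = 0.82, edgeR). NPC1 was at 257 CPM (100 to 343) against 165 CPM (0.67 ± 0.18, adjusted p = 0.0124, edgeR) and SOAT1 at 134 CPM (100 to 242) against 116 CPM (0.47 ± 0.14, adjusted p = 0.026, edgeR). Neither passed in 1 reaction alone: without reaction 1, NPC1 had an adjusted p of 0.0652 and SOAT1 of 0.511, and without reaction 2 they had 0.222 and 0.0923 (edgeR).

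Cycling macrophages (478 cells, marked by MKI67, TOP2A, CDK1 and BIRC5) had more of 3 synthesis genes and less ABCA1, CH25H and LSS. So 6 of 19 members passed, where 31.4% of genes did, 16.8% higher and 14.6% lower. The count is near the share of all genes and alone says little about the members. EBP was at a median of 32.7 CPM in 13 mice (11.0 to 47.4) against 18.0 CPM (11.5 to 29.99), higher in 12 of 13 mice (0.78 ± 0.21, adjusted p = 0.00273, edgeR), while FDPS (0.53 ± 0.15) and PMVK (0.40 ± 0.14) were higher in 9 of 13. ABCA1 was at 288 CPM (160 to 389) against 502 CPM (321 to 689) and LSS at 10.8 CPM (2.84 to 33.1) against 28.1 CPM (18.6 to 66.6), both lower in 13 of 13 mice (-0.73 ± 0.14 and -1.05 ± 0.23, adjusted p = 1.79e-05 and 0.000157, edgeR). CH25H was at 15.4 CPM (3.28 to 53.9), lower in 12 of 13 mice (-1.30 ± 0.34, adjusted p = 0.00204, edgeR). ABCA1 passed in each reaction alone. Without reaction 1, FDPS (adjusted p = 0.0525), PMVK (0.861) and CH25H (0.154) did not pass, and without reaction 2, FDPS (0.189) and LSS (0.0942) did not (edgeR).

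In CXCL10 macrophages (369 cells, 14 mice) and MT1G macrophages (182 cells, 5 mice) no member passed by edgeR. Of all genes 14% passed in the CXCL10 state, 8.59% higher and 5.41% lower, and 2.25% in the MT1G state, 1.61% higher and 0.636% lower. In CXCL10 macrophages INSIG1 was at a median of 190 CPM (42.2 to 338) against 315 CPM and NPC2 at 637 CPM (446 to 754) against 591 CPM; each passed under some of the alternative settings, INSIG1 lower and NPC2 higher. ABCG1 passed with doubled gate minimums, at a log2 fold change of -0.63 (adjusted p = 0.033, edgeR). CH25H, an interferon-induced gene, was at 31.9 CPM (9.17 to 201) in the CXCL10 state, which is gated on interferon-induced chemokines, and did not pass.

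The study treated mice with maraviroc to ask how the drug changes the tumor's immune cells, and the members were compared between the 7 maraviroc and the 7 untreated mice in each class. In macrophages, 0 of 29 tested members passed an adjusted p of 0.05 in edgeR, where 0.0% of 11545 genes passed. At an unadjusted p of 0.05, 1 member passed, where 3.03% of genes did, and DESeq2 called 0 members. The 29 members had log2 fold changes between -0.20 and 0.35, a median of 0.08 and a median SE of 0.15. On simulated macrophage data of 11421 genes, 87.5% of genes changed by 1 on the log2 scale were found. Changes as small as those of the members were not simulated. The changed genes were drawn at random, so the rate for scarce members is not known.

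ABCA1 was at a median of 562 CPM in the macrophages of untreated mice (426 to 740) and 562 CPM in those of maraviroc mice (364 to 835), 0.02 ± 0.15. HMGCS1 was at 28.8 CPM (25.7 to 36.3) and 29.6 CPM (25.2 to 40.3), 0.05 ± 0.12. NPC2 was at 653 CPM (581 to 780) and 641 CPM (540 to 764), -0.05 ± 0.09. The ranges of the 2 treatments overlapped for these members, and changes of the size of these SEs were not detectable. SREBF2 was the member with an unadjusted p under 0.05, at a median of 68.0 CPM in untreated (41.97 to 77.8) and 82.1 CPM in maraviroc mice (60.0 to 117). Its log2 fold change was 0.35 ± 0.15 (adjusted p = 1, edgeR), and 0.25 ± 0.13 without the maraviroc mouse with the fewest macrophages. In reaction 2 the 4 maraviroc mice (82.1 to 117 CPM) were all above the 3 untreated mice (68.0 to 69.4 CPM) for SREBF2, a log2 fold change of 0.47, while in reaction 1 the treatments overlapped (0.08). With the reaction as a term the value was 0.29. SREBF2 had the lowest p of the 29 members, and the share of all genes whose mice separate so in 1 reaction was not counted. For 16 of the 29 members the sign of the difference was opposite in the 2 reactions, and the interaction of treatment and reaction called 0 members (1 at an unadjusted p of 0.05, STARD4). The share of all genes with opposite signs was not counted, so nothing is read from the 16.

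**Figure D4:**
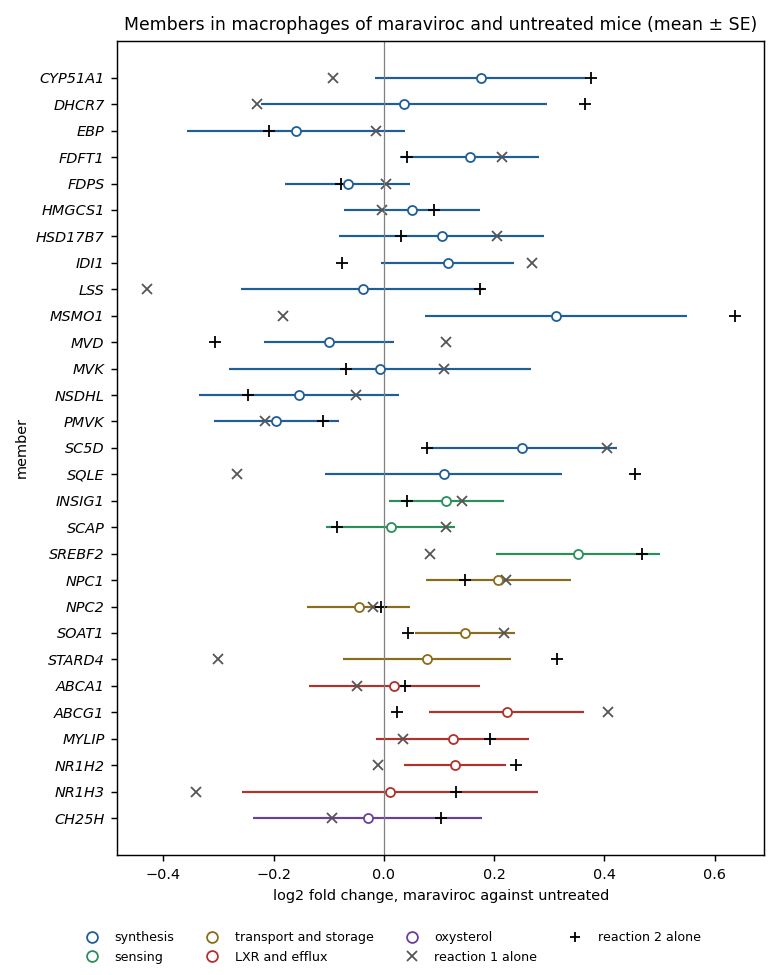
Log2 fold changes between maraviroc and untreated mice of the 29 members tested in macrophages (open circles with standard errors, 7 against 7 mice), with the values in reaction 1 (crosses) and reaction 2 (plus signs) alone. All pooled values lie between -0.20 and 0.35, none passed, and for 16 members the crosses and plus signs lie on opposite sides of 0. The share of all genes with opposite signs was not counted.

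In the other classes 0 members passed as well. In monocytes 25 members were tested, with log2 fold changes of -0.45 to 0.19 and 0 at an unadjusted p of 0.05 (4.54% of genes). In dendritic cells 20 were tested, with -0.88 to 0.15 and 1 at an unadjusted p of 0.05 (7.27% of genes), PMVK at -0.67 ± 0.23 (adjusted p = 0.645, edgeR). In lymphoid cells 28 were tested, with -0.72 to 0.44 and 1 at an unadjusted p of 0.05 (3.78% of genes), MVK at -0.51 ± 0.21 (adjusted p = 1, edgeR). SREBF2 in dendritic cells went opposite ways in the reactions: in reaction 1 the 3 maraviroc mice (56.3 to 70.1 CPM) were below the 4 untreated mice (115 to 132 CPM), and in reaction 2 the 4 maraviroc mice (186 to 231 CPM) overlapped with the 3 untreated mice (122 to 227 CPM). The SREBF2 interaction had the lowest p of the 20 members in this class and did not pass over all genes (adjusted p = 0.785, edgeR). The share of all genes whose mice separate as those of reaction 1 was not counted. Among the other genes of the pathway 0 passed in each of the 4 classes.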

How the data were processed

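The authors deposited UMI counts per gene and per hashtag, not normalized, made with Cell Ranger 9.0.1 on GRCh38; the submitters' notes also name Seurat 5.1.0. The gene totals of reactions 1 and 2 were 133089612 and 175447534 UMIs. Each mouse's treatment was read from its hashtag's name in the feature lists. Hashtags were called with HTODemux (Seurat 5.3.0, quantile 0.99), which also removed barcodes with hashtags of several mice, and singlets with above 600 and at most 6000 genes and under 12.5% mitochondrial counts were kept. No further doublet caller was run, but gates set upper limits on markers of other classes. The macrophage gate let monocyte markers reach up to 80 per 10000 UMIs, above the monocyte gate's own minimum of 40. The cDC2 and mature dendritic gates had no limit on monocyte markers. Gates used minimum marker UMIs and UMIs per 10000; their limits were set after seeing the data.

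UMIs were summed per mouse and class (at least 10 cells) and tested with edgeR 4.0.16 in R 4.3.3 (TMM, filterByExpr, quasi-likelihood test, Benjamini-Hochberg adjustment over all genes tested, threshold 0.05). Class and state fits had the mouse as a term, since each mouse gave several classes. Tumor cells and most macrophage states reached 10 cells in only some mice, such as 6 for tumor cells and 5 for MT1G macrophages. Treatment fits compared mice without a term for the reaction. Levels are CPM with TMM factors, and fold changes are fitted values. Each SE of a fold change is the absolute log2 fold change divided by the square root of the quasi-likelihood F. It is thus derived from the test and need not match the p exactly. DESeq2 1.42.0 was an alternative. In a simulation 200 genes drawn at random differed by a log2 fold of 1, with no mouse or reaction effect in the simulated means. For maraviroc against untreated macrophages (11421 genes) edgeR found 87.5% with 9 false calls. For macrophages against monocytes, fitted without the other classes (10331 genes), it found 93.5% with 9 false calls. Shares of the macrophage level have 95% Poisson intervals (exact) for counting error alone.

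The members and lists were chosen with earlier results of these data known. All 31 members are named with levels; fold changes are given for called members, at most the 12 largest per direction and comparison, and values for others are marked as not passing. Other alternatives covered library totals in place of TMM, no low-count filter, each reaction alone, cells above 1000 genes, doubled gate minimums and hashtag quantile 0.95. Cells above 3000 UMIs, doubled gate minimums with at least 5 cells, and leaving out the mouse with the fewest macrophages were added after seeing the data. Whether the mice are replicates from separate donors is not given, so p-values measure the spread between these mice. Some genes of the pathway are not reported here.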

Additional observations from a re-analysis of the deposited data

Results flagged for a closer look

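Over 58 sets of macrophage levels (29 members in the 7 untreated and the 7 maraviroc mice), 4 had a mouse far from the others by Dixon's ratio, where chance gives about 2.9 (1 in 20). All 4 were synthesis genes, and in all 4 the same maraviroc mouse of reaction 2 was highest: FDFT1 at 51.1 CPM (next mouse 40.2), SQLE at 35.9 CPM (next 18.9), CYP51A1 at 88.5 CPM (next 46.8) and MSMO1 at 40.4 CPM (next 17.6). This mouse had the fewest macrophages (91 cells). Its macrophage sum had 4320 CPM of macrophage markers against 4901 to 7124 CPM in the other 13 mice, 177 CPM of cDC2 markers against 31.2 to 113 CPM, and 2833 CPM of monocyte markers, inside the range of the others. The part of other cells' RNA in the 4 levels was not tested. Without this mouse the log2 fold change of maraviroc against untreated macrophages was 0.08 ± 0.11 for FDFT1, -0.07 ± 0.17 for SQLE, -0.02 ± 0.13 for CYP51A1 and 0.06 ± 0.15 for MSMO1, against 0.16, 0.11, 0.18 and 0.31 with it, and none passed either way.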

How the results depend on the processing

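The counts of members called between macrophages, monocytes, dendritic, lymphoid and tumor cells stayed within 1.5 times under every alternative that could be fitted, and no named fold change reversed. Of the called members not among these, FDPS in macrophages against monocytes changed sign in reaction 1 alone (0.03 against -0.23). Of 724 comparisons of the 71 named fold changes with an alternative, 668 kept their side of the threshold and 56 lost it, 11 of these in reaction 2 alone and 15 in reaction 1 alone. In GLUT1 macrophages the count of 9 fell to 4 in either reaction alone and to 2 with doubled gate minimums at 5 cells; with 10 cells that gate left too few mice for GLUT1 and tumor cells, and tumor cells and MT1G macrophages could not be fitted without reaction 1. Cycling macrophages fell from 6 to 3 in either reaction alone and to 3 with doubled gates at 5 cells, LYVE1 macrophages from 5 to 3 without reaction 2, and IL1A CCL20 macrophages from 3 to 0 to 1 in single reactions. CXCL10 macrophages rose from 0 to 1 with no low-count filter, DESeq2, cells above 1000 genes, quantile 0.95, cells above 3000 UMIs or doubled gates at 5 cells, and to 3 with doubled gates at 10 cells; the cause was not tested. Fits without the replicate block (the mouse term) called 1 in place of 3 in IL1A CCL20 macrophages, and between 0 and 30 elsewhere with no other count moved by over 1.5 times; a block for the reaction left the 4 treatment counts at 0. Hashtag and reaction numbers do not pair mice of the 2 treatments. Library totals in place of TMM shifted the median of all genes by 0.30 in tumor cells, 0.24 in lymphoid cells, 0.11 in macrophages against monocytes, -0.17 in GLUT1 and -0.12 in IL1A CCL20 macrophages, and all called members kept their direction. The correlation of ABCA1 and ABCG1 over mice (r = 0.54, unadjusted permutation p = 0.0458, adjusted 0.183) was 0.30 and 0.74 in the reactions and 0.35 without the 2 mice farthest from the median, each with an unadjusted p above 0.05. Depth limits the scarce members, and only 19 of the 31 could be tested between macrophage states.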

Other observations

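Over the macrophage sums of the 14 mice, 4 pairs of members were correlated on the log2 CPM scale. ABCA1 and ABCG1 had r = 0.54 (rho = 0.52; permutation p = 0.0458 and 0.0614, adjusted over the 4 pairs 0.183 and 0.208), HMGCS1 and IDI1 r = 0.43 (rho = 0.41; permutation p = 0.123 and 0.152), HMGCS1 and SQLE r = 0.37 (rho = 0.40; permutation p = 0.193 and 0.156) and HMGCS1 and ABCA1 r = -0.19 (rho = -0.17; permutation p = 0.512 and 0.554). None passed after adjustment. In the reactions alone, of 7 mice each, ABCA1 and ABCG1 had r = 0.30 (exact permutation p = 0.489) and 0.74 (exact permutation p = 0.0611). Whether these 2 values differ was not tested. Without the 2 mice farthest from the median of ABCA1, r was 0.35.

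Mean levels were followed over 12 gated classes, with macrophages as 1 of them and lymphoid cells gated only as T or NK as another. The genes closest to ABCA1 among 8628 genes above a minimum level were MT-ND1 (r = 0.95), MT-ND2 (0.93), LINC01094 (0.92), LPCAT2 (0.92) and CREG1 (0.92). For HMGCS1 they were RPS15 (0.88), KMT2A (0.87), MIR4435-2HG (0.84), RPL35A (0.84) and RPL28 (0.83). These values are descriptions over 12 points, which come from the same libraries. The cDC1 point rests on 1 mouse. Mitochondrial transcripts lead the ABCA1 list, and ribosomal protein genes make up most of the HMGCS1 list.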
